A study of Rattus norvegicus with 4 samples.

Results

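The 7 subunits of respiratory complex I that are encoded by the mitochondrial genome were ND1, ND2, ND3, ND4, ND4L, ND5 and ND6. They were chosen by symbol, as the rows of the deposited table that carry these names, and all 7 were found on 1 row each among 14137 gene identifiers. In the table ND1 is ENSRNOG00000030644, ND2 is ENSRNOG00000031033, ND3 is ENSRNOG00000033615, ND4L is ENSRNOG00000031053, ND4 is ENSRNOG00000029707, ND5 is ENSRNOG00000029971 and ND6 is ENSRNOG00000029042. RNA was sequenced from cultured ventricular cardiomyocytes of newborn rats; such cultures are freshly isolated heart muscle cells, among which other heart cells are found. Crat hairpin cultures (labelled KO) received a lentivirus with a short hairpin RNA against Crat, which encodes carnitine acetyltransferase, and control hairpin cultures (labelled WT) received a lentivirus with a control hairpin. All were harvested at day 5, and there were 2 libraries per group. A hairpin lowers a transcript and deletes no gene, and both groups carry a lentivirus.

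Complex I, NADH dehydrogenase, takes electrons from NADH, passes them to ubiquinone and pumps protons across the inner mitochondrial membrane. Its membrane arm is built around the subunits that the mitochondrial DNA encodes, while the subunits that bind NADH and the iron-sulfur clusters come from nuclear genes. Mitochondrial mRNAs are cut out of long transcripts that cover a whole strand, so that the genes lie behind each other on the same precursor. On the heavy-strand transcript of mammals ND1 and ND2 come first, followed by the COX and ATP genes, ND3, ND4L, ND4, ND5 and last CYTB. ND6 is read from the other strand. This order is background knowledge, since no mitochondrial sequence, coordinate or gene length was used here.

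The values are RPM, reads scaled to the library total and not divided by gene length, and the reads behind them came to 321516 and 1622998 in Crat hairpin replicates 1 and 2, and to 23680064 and 1321735 in control hairpin replicates 1 and 2. The depth spans a 73.7-fold range, with a Crat hairpin library the shallowest. Crat, the targeted gene, stood at 24.9 and 19.7 RPM in the Crat hairpin libraries, against 148 and 156 RPM in the control hairpin libraries, and its log2 fold change was -2.72 ± 0.19 (SE, n = 2 per group; limma with Benjamini-Hochberg adjustment, adjusted p = 7.3e-06). This rests on 8 and 32 reads in the Crat hairpin libraries, and the error from counting alone, 0.29 on the log2 scale, was above the fitted SE. Over all 12949 genes tested 823 fell and 1631 rose (6.36% and 12.6%), and the median log2 fold change was 0.15. With TMM scaling (trimmed mean of M-values) the median was -0.04, and 1279 fell and 1004 rose. With median-of-ratios scaling it was -0.03, with 1254 and 1044.

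All 7 mitochondrially encoded complex I transcripts fell in the Crat hairpin libraries, where 6.36% of all genes tested fell. Their fitted log2 fold changes ran from -1.22 for ND1 to -2.45 for ND4L, with a median of -2.05. In none of the 7 did the groups overlap, a pattern with the Crat hairpin libraries lower that 21.7% of all genes tested shared. The 7 transcripts together took 0.756% and 0.795% of the reads in the Crat hairpin libraries (Wilson 95% intervals 0.726% to 0.786% and 0.781% to 0.808%), against 2.52% and 2.42% in the control hairpin libraries (2.51% to 2.53% and 2.39% to 2.44%). The group means, 0.775% ± 0.027 and 2.47% ± 0.073 (SD, n = 2 each), differed 3.18-fold; the exact two-sided permutation test gave p = 0.33, the smallest that 2 against 2 allows. These intervals cover counting error only, and in a bulk culture fewer cells of a type and less RNA per cell cannot be told apart.

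**Figure D1:**
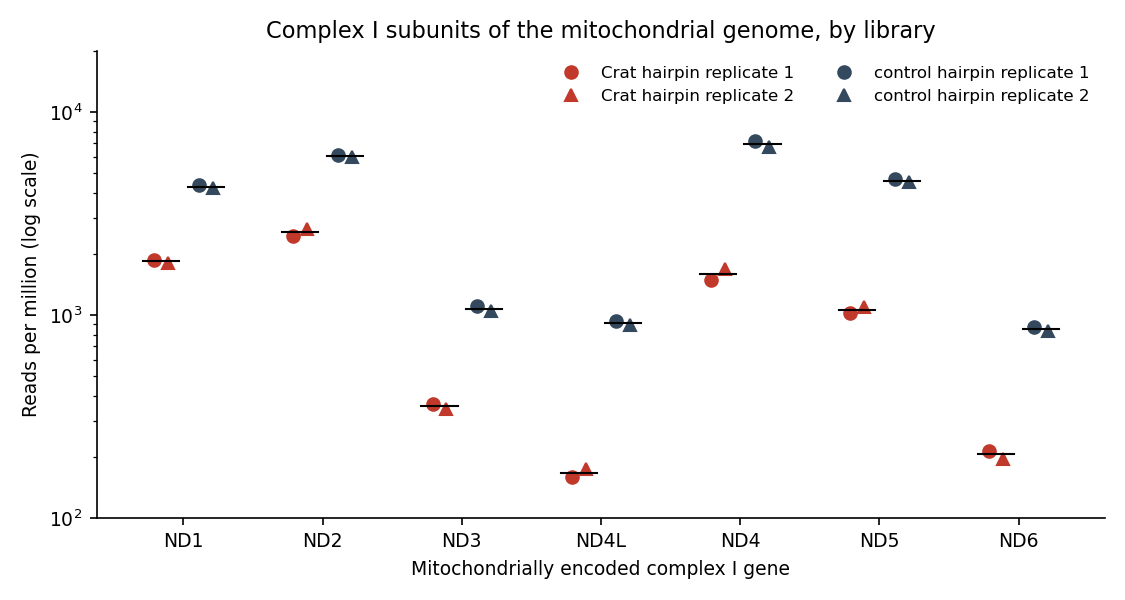
RPM (log axis) of the 7 mitochondrially encoded complex I genes in each library; red marks are Crat hairpin libraries, dark marks control hairpin libraries, circles replicate 1, triangles replicate 2, and lines the group means. For each gene both Crat hairpin libraries lie below both control hairpin libraries; values are not divided by gene length, so heights are not compared between genes.

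ND1 and ND2 are the first mRNAs on the heavy-strand transcript. ND1 forms the membrane end of the ubiquinone site, and ND2 is a proton-pumping subunit. ND1 had 1866 and 1803 RPM in the Crat hairpin libraries, against 4340 and 4206 RPM in the control hairpin libraries. The libraries of a group lay close together and the groups far apart, and the log2 fold change was -1.22 ± 0.04 (SE; limma adjusted p = 5.6e-08). ND2 had 2454 and 2646 RPM in the Crat hairpin libraries, against 6104 and 5998 RPM in the control hairpin libraries, a log2 fold change of -1.25 ± 0.04 (limma adjusted p = 5.9e-08). Both thus kept about the same part of their control level, 42.9% for ND1 and 42.1% for ND2.

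ND3, a small subunit whose loop lies near the ubiquinone site, had 364 and 345 RPM in the Crat hairpin libraries, against 1100 and 1046 RPM in the control hairpin libraries. Its log2 fold change was -1.60 ± 0.07 (limma adjusted p = 2.7e-07), and 33.0% of the control level was left. The 364 RPM of Crat hairpin replicate 1 rest on 117 reads.

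ND4L and ND4 share a bicistronic mRNA in mammals, and their reading frames overlap by a few bases. In the counts of mitochondrial mRNAs given here each coding gene is counted separately. ND4L, a small membrane subunit, had 159 and 174 RPM in the Crat hairpin libraries, against 931 and 892 RPM in the control hairpin libraries. Its fall was the largest of the 7, with a log2 fold change of -2.45 ± 0.08 (limma adjusted p = 5.9e-08) and 18.2% of the control level left. ND4, a proton-pumping subunit of the distal membrane arm, had 1484 and 1691 RPM in the Crat hairpin libraries, against 7159 and 6699 RPM in the control hairpin libraries. Its log2 fold change was -2.13 ± 0.06 (limma adjusted p = 2.0e-08), and 22.9% of the control level was left. The Crat hairpin libraries lay 146 RPM (SD, n = 2) around a mean of 1587 RPM, and the control hairpin libraries 325 RPM around 6929 RPM, so the gap between the groups was far wider than either spread.

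ND5, the proton-pumping subunit at the far end of the membrane arm, had 1017 and 1091 RPM in the Crat hairpin libraries, against 4689 and 4490 RPM in the control hairpin libraries. The log2 fold change was -2.12 ± 0.05 (limma adjusted p = 6.6e-09), with 23.0% of the control level left. ND6, a membrane subunit and the only one of the 7 read from the light strand, had 215 and 196 RPM in the Crat hairpin libraries, against 874 and 836 RPM in the control hairpin libraries. Its log2 fold change was -2.05 ± 0.08 (limma adjusted p = 1.6e-07), with 24.0% of the control level left. The sources used here do not say whether counting used strand, so reads of ND6 and of heavy-strand RNA across the same stretch cannot be told apart. Likewise, nuclear copies of mitochondrial DNA can share reads with all 7.

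Ordered over the 12949 genes tested by log2 fold change from the most negative, ND4L stood at place 46, ND4 at 106, ND5 at 108, ND6 at 125, ND3 at 317, ND2 at 626 and ND1 at 657. Control hairpin replicate 1 held 20691 reads or more of each of the 7. In Crat hairpin replicate 1 the 3 members with the fewest reads were ND4L, ND6 and ND3, with 51, 69 and 117. For these the error from counting alone, 0.11 for ND4L, 0.10 for ND6 and 0.08 for ND3 on the log2 scale, was above the fitted SE. Without Crat hairpin replicate 1 all 7 still fell, with log2 fold changes of -1.24 for ND1, -2.38 for ND4L and -2.03 for ND4. The limits are that 2 of the 7 calls were lost without a variance trend (limma adjusted p = 0.0553 for ND1 and for ND2), and that median-of-ratios scaling took ND1 to -1.41 and ND4L to -2.64. In the authors' deposited table the adjusted p-values were 4.5e-111 for ND1, 1.8e-84 for ND4L and 2.5e-231 for ND5.

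The 7 did not fall by the same amount. Of the 21 pairs of members, 17 differed in their change when every gene was divided by the second member of the pair and the limma fit was repeated over all genes, a comparison of all pairs added after the data had been seen. The 4 pairs that did not pass were ND2 with ND1 (difference -0.03 ± 0.05 in log2, adjusted p = 0.659), ND5 with ND4 (0.01 ± 0.11, adjusted p = 0.966), ND6 with ND4 (0.07 ± 0.14, adjusted p = 0.679) and ND6 with ND5 (0.06 ± 0.11, adjusted p = 0.609). ND4 fell by 0.91 ± 0.07 more than ND1 on the log2 scale (adjusted p = 1.9e-05), ND3 by 0.38 ± 0.07 more than ND1 (adjusted p = 0.00109), and ND4L by 1.23 ± 0.09 more than ND1 (adjusted p = 1.3e-05). ND4 fell less than ND4L, by a difference of 0.33 ± 0.06 (adjusted p = 0.00111). These genes share an mRNA, and how reads across their overlap were divided between them was not tested. The SEs of the differences with ND4L and ND3 are too small. The error from counting alone was 0.11 for ND4L and 0.08 for ND3 on the log2 scale, above the SE of each difference given with them. The adjusted p-values of all pairs are mild, because the divisor itself fell: between 70.2% and 86.5% of all genes tested were called in such a fit. The count of 17 of 21 is near that share, so by itself it says little about the members. The sizes of the differences are what is described here.

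The same differences appear in the ratios of reads within each library. ND4 over ND1 was 0.795 and 0.938 in the Crat hairpin libraries, against 1.65 and 1.59 in the control hairpin libraries. The groups did not overlap, and the ratio was lower in both Crat hairpin libraries. ND4L over ND4 was 0.107 and 0.103 in the Crat hairpin libraries, against 0.130 and 0.133 in the control hairpin libraries. ND5 over ND4 was 0.686 and 0.645 in the Crat hairpin libraries, against 0.655 and 0.670 in the control hairpin libraries, so the groups overlapped. ND6 over ND5 overlapped as well, at 0.211 and 0.180 in the Crat hairpin libraries, against 0.186 and 0.186 in the control hairpin libraries.

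The other 6 mRNAs of the mitochondrial genome belong to complexes III, IV and V, and all 6 fell too. COX1 of complex IV had the smallest fall of the 13, a log2 fold change of -0.89, and CYTB of complex III had -2.29. COX2, COX3, ATP6 and ATP8 had -1.54, -1.53, -1.69 and -1.81. The 13 together took 3.64% and 3.62% of the reads in the Crat hairpin libraries, against 9.47% and 9.08% in the control hairpin libraries. Within these reads the 7 complex I transcripts made up 20.8% and 22.0% in the Crat hairpin libraries (Wilson 95% intervals 20.1% to 21.5% and 21.6% to 22.3%), against 26.6% in each control hairpin library (26.5% to 26.7% and 26.4% to 26.9%). The exact two-sided permutation test on this share gave p = 0.33, the smallest possible.

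**Figure D2:**
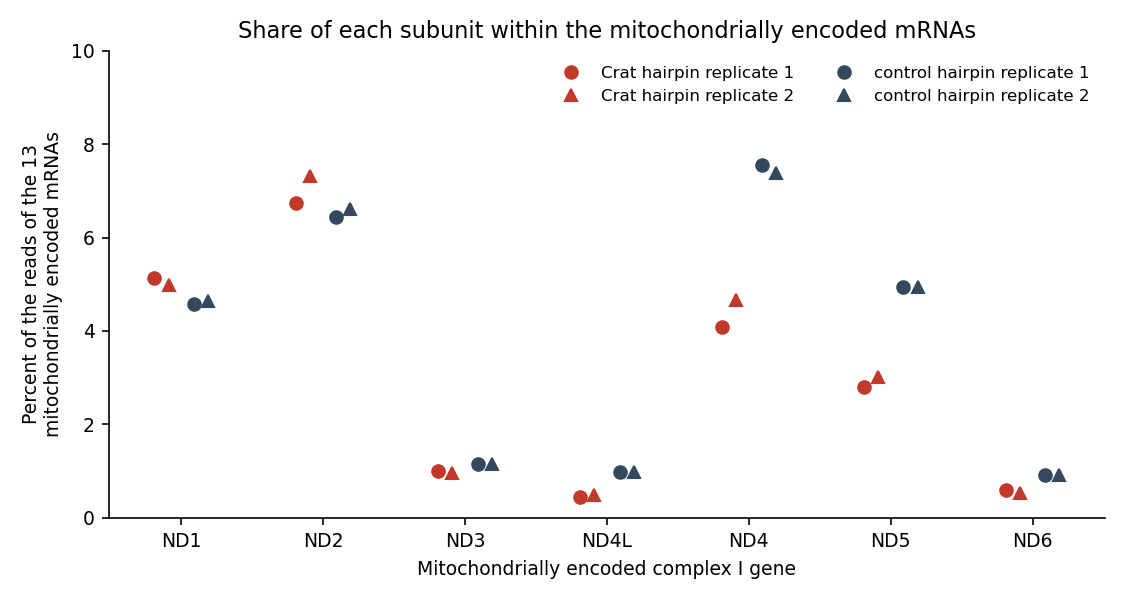
Percent of the reads of the 13 mitochondrially encoded mRNAs taken by each complex I gene in each library; red marks are Crat hairpin libraries, dark marks control hairpin libraries, circles replicate 1 and triangles replicate 2. ND4 took 4.08% and 4.67% in the Crat hairpin libraries, against 7.56% and 7.38% in the control hairpin libraries, while ND1 took 5.13% and 4.98%, against 4.58% and 4.63%.

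Set against the total of the 13, 6 of the 7 members changed: 5 fell and 1 rose. In this fit 0.479% of all genes tested were lower and 73.2% higher, since nearly all genes stand higher against a total that fell. Relative to the 13, ND4L had a log2 change of -1.10 ± 0.09 (limma adjusted p = 8.1e-06), ND4 -0.77 ± 0.06 (adjusted p = 8.2e-06), ND5 -0.77 ± 0.05 (adjusted p = 3.3e-06), ND6 -0.70 ± 0.08 (adjusted p = 8.1e-05) and ND3 -0.24 ± 0.07 (adjusted p = 0.0115). ND1 had 0.13 ± 0.04 (adjusted p = 0.0168), and ND2 had 0.11 ± 0.05 and did not pass (adjusted p = 0.0648). Of 12 alternatives to this fit, the call on ND1 was lost under 5 and the call on ND3 under 3. The calls on ND1 and ND3 were lost when either control hairpin library was left out, and the call on ND1 also without Crat hairpin replicate 1, where ND2 passed. By edgeR, with the reads of the 13 as library size, all 7 changed, as did 83.7% of all genes; this alternative was added after the data had been seen. COX1 alone held 51.1% and 50.5% of the reads of the 13 in the Crat hairpin libraries, against 36.9% and 36.9% in the control hairpin libraries, so it weighs most on this total.

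Along the heavy-strand transcript the changes tended to be larger for the genes that lie later. ND1 and ND2, at the first and second place among its mRNAs, had -1.22 and -1.25. ND3, at place 8 of 12, had -1.60, and ND4L, ND4 and ND5 near the end had -2.45, -2.13 and -2.12. Over the 12 heavy-strand genes the log2 fold change and the place in the order had a Spearman rho of -0.85 and a Pearson r of -0.86. This describes 12 points that share the same 4 libraries, and among them ND4L and ND4 share an mRNA. Against the mean level in the control hairpin libraries rho was 0.32 over the same 12 genes. The order did not hold gene by gene: COX1, at place 3, fell less than ND1 and ND2, and ND4L fell more than ND4 and ND5 behind it. From place 4 to place 8 the changes did not grow steadily. COX2, ATP8, ATP6, COX3 and ND3 had -1.54, -1.81, -1.69, -1.53 and -1.60. Over the 6 heavy-strand members alone rho was -0.77. ND6, from the other strand, changed about as much as ND5, its neighbour.

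**Figure D3:**
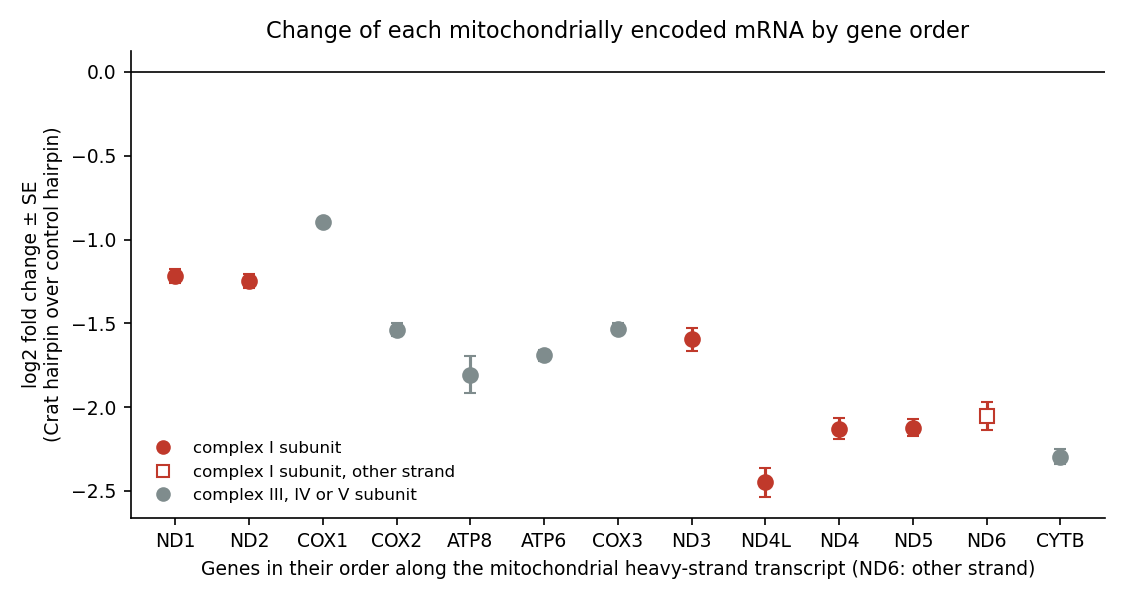
Log2 fold change (Crat hairpin over control hairpin, with SE) of the 13 mitochondrially encoded mRNAs in their order along the heavy-strand transcript; red circles are complex I subunits, the open square is ND6 on the other strand, and grey circles are subunits of complexes III, IV and V. All 13 lie below 0, from -0.89 for COX1 to -2.45 for ND4L.

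Of the nuclear-encoded subunits of complex I most did not pass by limma or by DESeq2, while most fell by edgeR. Of 37 listed, 29 are named in the table; 6 fell and 0 rose by limma (11 and 0 at an unadjusted p under 0.05; 21 and 0 by edgeR, which called 15.9% of all genes lower and 13.7% higher; 8 and 0 by DESeq2, which called 6.68% and 5.78%), and the median log2 fold change was -0.22, against 0.15 over all genes. Their summed level was 3017 and 2948 RPM in the Crat hairpin libraries, against 3541 and 3511 RPM in the control hairpin libraries. The largest fall among them, -0.88 for Ndufs8, was smaller than the smallest among the mitochondrially encoded 7. No test of the difference between the lists was made. Depth limits these calls too, since Crat hairpin replicate 1 held 14 reads of Ndufs8 and 15 of Ndufb6. A nuclear subunit that did not pass cannot be called unchanged.

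In the distal membrane arm, which holds ND4 and ND5, 4 of 8 nuclear subunits fell by limma, which called 6.36% of all genes lower (8 by edgeR, which called 15.9%, and 5 by DESeq2, which called 6.68%). Ndufb6 had 46.7 and 46.2 RPM in the Crat hairpin libraries, against 81.0 and 87.8 RPM in the control hairpin libraries, a log2 fold change of -0.85 ± 0.17 (limma adjusted p = 0.00664). Ndufb8 had a log2 fold change of -0.67 and Ndufb7 -0.59; Ndufb5, the remaining one, had -0.57. In the proximal membrane arm, which holds the other 5 mitochondrially encoded subunits, 0 of 7 changed by limma (1 at an unadjusted p under 0.05, 3 by edgeR and 0 by DESeq2). Ndufa10, the nuclear subunit of this arm with the highest mean RPM, had 177 and 152 RPM in the Crat hairpin libraries, against 164 and 172 RPM in the control hairpin libraries. In the Q module, which leads to the ubiquinone site, 1 of 5 fell by limma (5 by edgeR and 2 by DESeq2). The limma call was the iron-sulfur subunit Ndufs8, with 43.5 and 37.6 RPM in the Crat hairpin libraries, against 73.8 and 77.2 RPM in the control hairpin libraries (limma adjusted p = 0.00830). In the N module, which takes up NADH, 1 of 9 fell by limma (5 by edgeR and 1 by DESeq2): Ndufv1, which binds NADH, had a log2 fold change of -0.40 ± 0.10 (limma adjusted p = 0.0266).

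Of 18 assembly factors in the data 1 rose and 0 fell by limma (2 and 0 at an unadjusted p under 0.05, and 1 and 0 by edgeR and by DESeq2). Over all genes tested limma called 12.6% higher and 6.36% lower, edgeR 13.7% and 15.9%, and DESeq2 5.78% and 6.68%. The 1 of 18 that rose is thus not above the share over all genes. Tmem70, which helps to assemble ATP synthase and complex I, had 31.1 and 33.9 RPM in the Crat hairpin libraries, against 10.7 and 4.54 RPM in the control hairpin libraries, a log2 fold change of 2.06 ± 0.41 (limma adjusted p = 0.00653). It rests on 10 reads in Crat hairpin replicate 1 and 6 in control hairpin replicate 2, and without control hairpin replicate 2 it did not pass (log2 fold change 1.52, limma adjusted p = 0.166). The counts of nuclear complex I genes are unstable: 0 fell without either control hairpin library, without a variance trend, or with all libraries thinned to the shallowest in a single random draw.

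**Figure D4:**
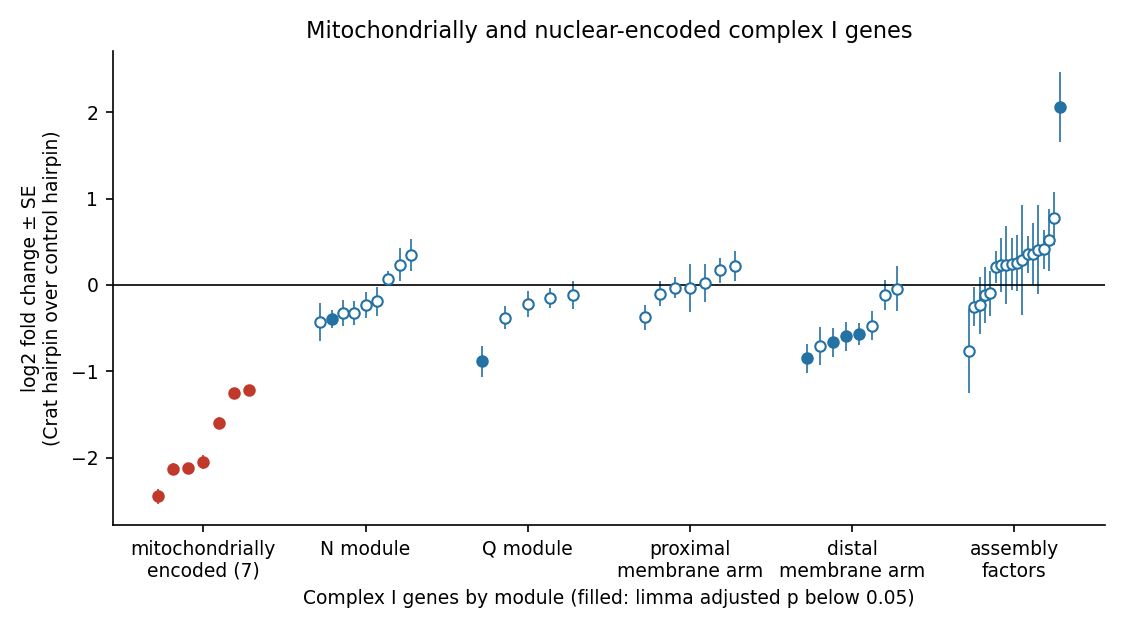
Log2 fold change (Crat hairpin over control hairpin, with SE) of the mitochondrially encoded complex I genes (red) and of the nuclear subunits by module and the assembly factors (blue); filled points have a limma adjusted p below 0.05. The 7 red points lie between -2.45 and -1.22, and the nuclear subunits between -0.88 and 0.35.

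Genes that act on mitochondrial DNA and RNA mostly did not pass. Depth limits these calls, since Crat hairpin replicate 1 held 13 reads of Tfam and 10 of Polg, so a gene that did not pass cannot be called unchanged. Of 9 transcription factors of mitochondria 0 changed by limma (3 at an unadjusted p under 0.05, 1 by edgeR and 0 by DESeq2); Tfam, which packs mitochondrial DNA and starts its transcription, had 40.4 and 43.1 RPM in the Crat hairpin libraries, against 32.0 and 43.1 RPM in the control hairpin libraries. Of 7 replication genes 0 changed by limma, by edgeR and by DESeq2, and 0 at an unadjusted p under 0.05; Polg, the DNA polymerase, had a log2 fold change of -0.07. Of 17 genes of RNA processing and stability 2 rose and 0 fell by limma (2 and 0 at an unadjusted p under 0.05, 2 and 1 by edgeR, 1 and 0 by DESeq2). Over all genes tested limma called 12.6% higher and 6.36% lower, edgeR 13.7% and 15.9%, and DESeq2 5.78% and 6.68%. The 2 of 17 that rose by limma are thus near the share over all genes. Pnpt1, the mitochondrial polynucleotide phosphorylase that degrades RNA, had 84.0 and 94.3 RPM in the Crat hairpin libraries, against 36.1 and 31.8 RPM in the control hairpin libraries, a log2 fold change of 1.37 ± 0.18 (limma adjusted p = 0.00068). Fastk, whose mitochondrial form is needed for ND6 mRNA in human and mouse cells, had 68.4 and 94.3 RPM in the Crat hairpin libraries, against 49.7 and 43.1 RPM in the control hairpin libraries (log2 fold change 0.78 ± 0.20, limma adjusted p = 0.0246). Without control hairpin replicate 2 neither passed (adjusted p = 0.0565 for Pnpt1 and 0.376 for Fastk), and Fastk also did not pass without control hairpin replicate 1 (adjusted p = 0.216) or with median-of-ratios scaling (adjusted p = 0.0783).

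Markers of heart muscle cells, in which mitochondria are abundant, moved with the same groups. Of 12 listed, 10 are named in the table. Of these, 8 fell and 0 rose by limma (8 and 0 at an unadjusted p under 0.05, by edgeR and by DESeq2). For this and the marker counts below, limma called 6.36% of all genes lower and 12.6% higher, edgeR 15.9% and 13.7%, and DESeq2 6.68% and 5.78%. The summed level of the 10 heart muscle markers was 11953 and 12309 RPM in the Crat hairpin libraries, against 30330 and 30803 RPM in the control hairpin libraries. Cardiac markers such as Myh6, Tnnt2 and Actc1 were present in every library, Myh6 at 2858 and 3056 RPM in the Crat hairpin libraries, against 8573 and 9126 RPM in the control hairpin libraries. Ryr2, the calcium release channel of heart muscle, did not pass, with 414 and 505 RPM in the Crat hairpin libraries, against 444 and 483 RPM in the control hairpin libraries (log2 fold change -0.02, limma adjusted p = 0.923). Only Mb, among the 10, was listed at 0 in a library, Crat hairpin replicate 1. Among fibroblast markers 5 of 9 fell and 2 rose by limma (6 and 2 by edgeR, 5 and 2 by DESeq2), with sums of 16805 and 17143 RPM in the Crat hairpin libraries, against 22932 and 23922 RPM in the control hairpin libraries. For smooth muscle and pericytes, 5 of 7 markers fell and 1 rose by limma (5 and 0 by edgeR and by DESeq2), with sums of 1863 and 1786 RPM, against 5164 and 5271 RPM; Rgs5 was at 0 in Crat hairpin replicate 1. Endothelial markers summed to 52.9 and 54.2 RPM over 5 genes, against 27.2 and 31.0 RPM; 1 of the 4 tested rose and 0 fell (1 and 0 at an unadjusted p under 0.05 and by edgeR, 0 and 0 by DESeq2), Cdh5 was at 0 in Crat hairpin replicate 1 and Vwf in both Crat hairpin libraries. Leukocyte markers summed to 40.4 and 41.9 RPM over 7 genes, against 38.8 and 40.1 RPM; 0 of the 6 tested changed by limma, edgeR or DESeq2 (0 at an unadjusted p under 0.05 in limma), and Csf1r and Cd3e were at 0 in Crat hairpin replicate 1. None of the 3 red cell symbols searched for, Hba-a1, Hba-a2 and Hbb, was found. The part of any of these in the fall of the 7 transcripts was not tested.

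The genes outside the mitochondrial genome whose profile over the 4 libraries lay nearest to the mean profile of the 7 members were Trim55, Kif5b, Thbs1, Myh7 and Inpp4b. The measure was the Euclidean distance between centred log2 profiles, over the 10817 genes whose mean reached 5 RPM. Trim55, a ubiquitin ligase of the sarcomere, lay at 0.0992, Kif5b, a kinesin motor, at 0.0998 and Thbs1, thrombospondin, at 0.104, while the members themselves lay between 0.249 and 0.622 from their own mean. Myh7, the slow myosin heavy chain, at 0.142, had 286 and 299 RPM in the Crat hairpin libraries, against 1124 and 1150 RPM in the control hairpin libraries. Inpp4b, a lipid phosphatase, at 0.177, is uncertain, with 1 read in Crat hairpin replicate 1. Nearness here means mainly a fall of like size.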

How the data were processed

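Messenger RNA levels were measured in 4 libraries, 2 per group. Per the file headers the authors deposited TPM for each library, but within a library the deposited values are all multiples of the same step, and over the 14137 identifiers every library has the same sum, so the deposited signal is reads scaled to the library total (RPM), not divided by gene length. Whole reads came back for 100% of values within 0.02 of a read. The deposited p-value and adjusted p-value are the authors'; how they were tested is not stated. The submitters' processing notes name kallisto, DESeq2 and mRatBN7.2, without versions.

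Values were taken as log2(value + 1) for the 12949 genes with a mean of at least 1 and tested by limma (version 3.58.1, R version 4.3.3), using a variance trend, Benjamini-Hochberg adjustment over all genes and a threshold of 0.05; fold changes on this scale understate those of low genes. A second fit divided each library by its total over the 13 mitochondrially encoded mRNAs. Alternatives were other pseudocounts, filters, scalings and variance priors, thinned reads, leaving out each library, a replicate block, edgeR 4.0.16 and DESeq2 1.42.0 on the recovered reads. The script was tested on simulated data. Shifts of known size were put in, and those it picked up depended on that size. It found 6 out of 67 at 1.5-fold, 20 out of 67 at 2-fold and 43 out of 66 at 4-fold. Among 12749 genes left as they were, 0 were called. Most simulated shifts of 1.5-fold and 2-fold were thus missed, so a gene that did not pass may still differ by that much.

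Besides all members, the other 6 mitochondrial mRNAs and Crat, the text names up to 3 called genes per list and direction, or the most abundant where none passed, and the 5 nearest profiles; Ndufb5 and the cell markers named were chosen after their values were seen. Members and lists were chosen with earlier results of these data known. Nothing in the labels says that replicates came from separate cultures, so p-values measure the spread between these libraries only. Within a group reads differed beyond counting error (chi-square per degree of freedom 1.30 in the Crat hairpin pair and 1.50 in the control hairpin pair).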

Additional observations from a re-analysis of the deposited data

How the results depend on the processing

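All 7 members fell under 16 of 17 alternatives; without a variance trend 5 fell. Their log2 fold changes ran from -1.43 to -1.19 for ND1 and from -2.65 to -2.38 for ND4L over these alternatives. Relative to the 13 mitochondrial mRNAs, 4 to 7 members changed, with 4 to 6 when a library was left out. The log2 ratio of the members' summed share, -1.67, ran from -1.71 to -1.64 with a library left out and was -0.32 as a share of the 13. Nuclear complex I genes that fell, 6 in the limma fit, numbered 0 without a variance trend and after thinning (4 and 8 at an unadjusted p under 0.05), 12 with TMM and with median-of-ratios scaling and 21 by edgeR, which called 15.9% of all genes lower. With a library left out they numbered 0 to 14. Those that rose, 1, numbered 0 without a trend and after thinning (2 and 1 at an unadjusted p under 0.05), and 0 to 6 with a library left out. In leave-out fits the lone library of a group is assumed to vary like the others, and fewer samples are fitted; otherwise the cause was not tested. Over all genes 79 fell and 266 rose without a trend, 2065 and 1774 by edgeR, and 52 and 93 after thinning. Replicate numbers did not pair the libraries (correlation of same-numbered deviations 0.01): with a replicate block 7 members and 8 nuclear genes fell and 1 nuclear gene rose, and 7 members changed relative to the 13, where ND2 passed (adjusted p = 0.0157). Among the 7 members depth limits ND4L, ND6 and ND3 most, in Crat hairpin replicate 1.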
